A study of Mus musculus with 16 samples.

Results

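The mitochondrial ribosomal proteins were taken as every gene on the array whose symbol begins with Mrpl (large subunit) or Mrps (small subunit) followed by a digit, with pseudogenes left out. The rule found 76 genes of 19505 named genes, each with 1 probe set. By name and by their known place in the ribosome, 50 belong to the large subunit, 25 to the small subunit, and 1, Mrps36, is a subunit of the oxoglutarate dehydrogenase complex and not of the ribosome. Mrps30 and Mrps18a carry small-subunit names but sit in the large subunit and were counted there. Mrps6 and Mrpl53 were not analysed here. Expression was measured on Affymetrix arrays in male C57BL/6J offspring aged 14 weeks. F1 offspring had an obese father and a control mother, and the father had eaten a diet with 45% lipid for 12 weeks from the age of 8 weeks before mating. CT offspring had control parents, and their fathers had been given chow. The 4 groups were liver F1, liver CT, eWAT F1 and eWAT CT, eWAT being the label's name for a white fat depot, with 4 libraries each. The labels call these biological replicates and do not give litters or fathers, so p-values here reflect only how these libraries vary.

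Mitochondrial ribosomes translate the few proteins encoded by mitochondrial DNA, all of them core subunits of the respiratory chain and of ATP synthase. Their protein subunits are all encoded in the nucleus, made in the cytosol and imported, some descended from the bacterial ancestor's ribosome and others added later in mitochondrial evolution. In adipocytes and hepatocytes this translation system supplies core subunits of the oxidative phosphorylation (OXPHOS) machinery that burns fatty acids and sugars.

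All 76 genes lay above the filter on dim probe sets (a mean at or above the 25th percentile) in both tissues. Deposited values are log2 expression. Adipoq, the adipocyte hormone adiponectin, stood at 18.95 to 19.24 in the eWAT libraries, and Alb, hepatocyte albumin, at the top of the array's scale in every liver library. Several libraries held transcripts of other tissues. The library eWAT F1 1 held seminal vesicle transcripts, with Svs2 at 16.22 against at most 4.88 in every other library. The library eWAT CT 4 held male germ cell transcripts, with the sperm protamine Prm1 at 11.56 there. The library liver F1 4 held exocrine pancreas transcripts, with Amy2a5 at 17.69. Liver transcripts were present in eWAT, where Alb ranged from 16.65 to 19.07 in F1 and from 12.43 to 18.91 in CT. These libraries were kept, and the eWAT results of the mitochondrial ribosomal genes are given with and without F1 1 and CT 4. Tissue samples are mixtures, so fewer cells of a type and less RNA per cell cannot be told apart.

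In eWAT, mitochondrial ribosomal protein transcripts had mostly higher means in F1 than in CT offspring, by small amounts. Of the 76 genes, 59 (77.6%) had a higher mean in F1, against 49.8% of all 14629 genes tested. Their median difference, F1 minus CT, was 0.20 on the log2 scale, against -0.0025 over all genes, and single genes ran from -0.51 to 0.76. None passed an adjusted p of 0.05 in limma, and neither did any other gene in this tissue (0% of 14629). At an unadjusted p under 0.05, 9 of the 76 (11.8%) were higher and 0 lower in F1, against 4.96% and 5.06% of all genes. In 5 of the 76 (6.58%) the lowest F1 library exceeded the highest CT library, against 2.93% of all genes, and in 0 of the 76 the highest F1 library was under the lowest CT library, against 3.02% of all genes.

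The shift was uneven across libraries. As a median over the 76 genes of the deviation from each gene's own mean over the 8 eWAT libraries, F1 libraries 1 to 4 stood at 0.25, -0.01, 0.11 and 0.04, and CT libraries 1 to 4 at -0.02, 0.08, -0.16 and -0.29. The groups overlapped, because CT 2 lay above F1 2 and F1 4. The number of genes above their own mean was 65, 37, 45 and 44 in the F1 libraries, and 35, 50, 20 and 12 in the CT libraries. The highest library, F1 1, was the one with seminal vesicle transcripts, and the lowest, CT 4, the one with germ cell transcripts. With both left out, the median difference was 0.09 (all genes -0.02), 51 of the 76 had a higher mean in F1 (47.7% of all genes), and 2 were higher and 1 lower at an unadjusted p under 0.05 (3.82% and 4.45% of all genes). Without F1 1 alone the median was 0.16, with 4 higher and 2 lower (3.9% and 4% of all genes). Without CT 4 alone it was 0.14, with 5 higher and 0 lower (4.51% and 5.18% of all genes).

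**Figure D1:**
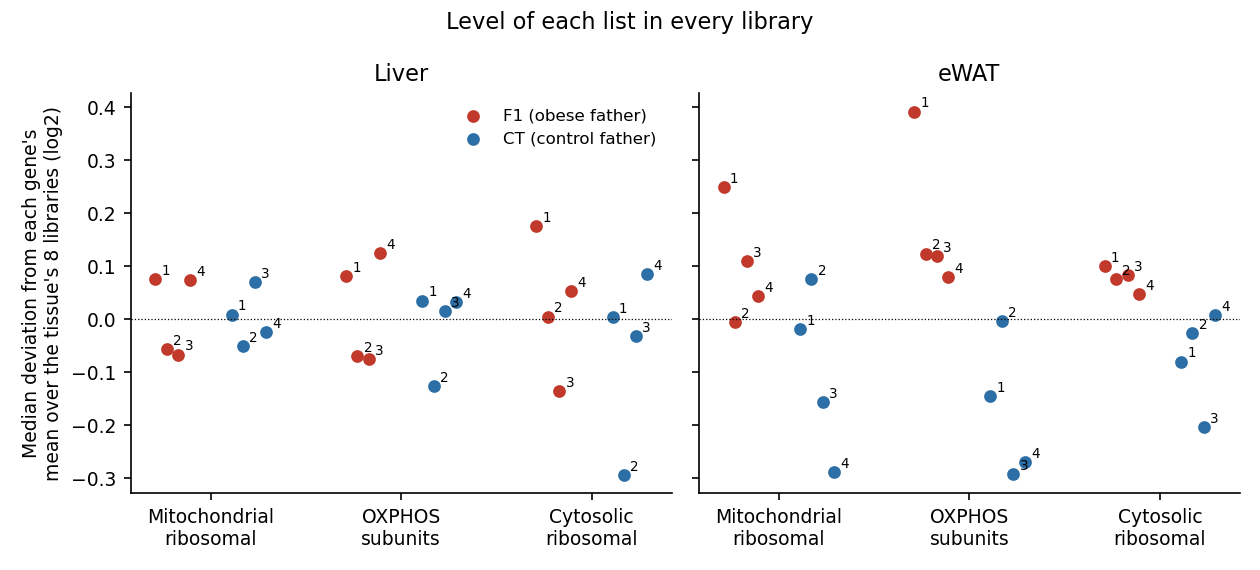
Each point is 1 library; the vertical axis is the median, over the genes of a list, of the deviation from each gene's mean over the 8 libraries of the tissue (log2), for F1 (red) left of CT (blue), with replicate numbers beside the points. In eWAT the mitochondrial ribosomal genes ran from -0.01 to 0.25 in F1 and from -0.29 to 0.08 in CT, and in liver both groups stayed within 0.08 of 0.

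Mrps35, a small-subunit protein specific to mitochondria, had the smallest p of the list in eWAT with all 8 libraries. Its level was 7.83, 7.50, 7.65 and 7.36 in the F1 libraries, and 6.99, 7.06, 6.77 and 7.03 in the CT libraries. No CT library reached the F1 range, and the difference was 0.62 ± 0.16 (SE, n = 4 each, a 1.54-fold ratio), with an adjusted p of 0.366 in limma. Mrps15, the counterpart of a bacterial small-subunit protein that binds ribosomal RNA, stood at 9.34, 9.07, 9.60 and 9.44 in F1, and at 8.35, 9.03, 8.83 and 8.98 in CT. The F1 libraries were again all higher, the closest pair being F1 2 and CT 2, with a difference of 0.57 ± 0.20 (adjusted p = 0.408). Mrps30, a mitochondria-specific protein of the large subunit despite its name, stood at 8.25, 8.28, 8.34 and 8.23 in F1, against 7.63, 8.00, 7.99 and 7.84 in CT. Its F1 libraries were close together (SD 0.048) and above all CT libraries, with a difference of 0.41 ± 0.15 (adjusted p = 0.408).

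The other 3 genes with the smallest p overlapped between the groups. Mrpl43, a mitochondria-specific large-subunit protein, stood at 5.26, 4.82, 4.91 and 5.19 in F1, and at 4.30, 4.90, 4.44 and 4.32 in CT, and only CT 2 reached into the F1 range. Mrps18c, 1 of 3 mammalian relatives of a single bacterial protein, stood at 10.47, 9.52, 9.81 and 10 in F1, and at 9.06, 9.73, 8.70 and 9.28 in CT. Its difference, 0.76 ± 0.27, was the largest of the 76 in eWAT in either direction (adjusted p = 0.408). It rested in part on F1 1, without which it was 0.58. Mrpl20, whose bacterial counterpart is needed to assemble the large subunit, stood at 10.63, 10.27, 10.53 and 10.33 in F1, and at 10.33, 9.85, 9.98 and 9.60 in CT, so that F1 2 lay just below CT 1 and F1 4 level with it. The differences were 0.555 ± 0.19 for Mrpl43 and 0.50 ± 0.19 for Mrpl20, with adjusted p-values of 0.408 and 0.427. With F1 1 and CT 4 left out, the 6 differences were 0.56 for Mrps35, 0.63 for Mrps15, 0.41 for Mrps30, 0.43 for Mrpl43, 0.61 for Mrps18c and 0.32 for Mrpl20. Of these, Mrpl20 moved by more than 1.5 times.

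Another 3 genes, named after their values were seen, complete the 9 with an unadjusted p under 0.05. Mrpl51, a mitochondria-specific large-subunit protein, stood at 11.65, 11.33, 11.33 and 11.34 in F1, and at 11.19, 11.10, 10.80 and 10.93 in CT. Mrpl33, the counterpart of a small bacterial large-subunit protein, stood at 11.41, 11.20, 11.19 and 11.25 in F1, and at 10.88, 11.10, 10.77 and 10.95 in CT. For these genes all F1 libraries were higher than all CT libraries, by 0.41 ± 0.16 and 0.34 ± 0.14 on average (adjusted p = 0.438 and 0.480). Mrps27, a small-subunit protein with pentatricopeptide repeats, stood at 8.87, 9.06, 8.38 and 7.92 in F1, and at 7.62, 8.15, 8.22 and 7.71 in CT. Its F1 libraries were spread widely and F1 4 lay inside the CT range (difference 0.63 ± 0.27, adjusted p = 0.481). With F1 1 and CT 4 left out, the differences were 0.30 for Mrpl51, 0.30 for Mrpl33 and 0.46 for Mrps27.

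A minority of 17 genes had a lower mean in F1 eWAT, and with all 8 libraries none of them reached an unadjusted p of 0.05. Mrps9, a protein of the small subunit's head with a bacterial counterpart, was the lowest, at 9.56, 9.01, 8.66 and 9.03 in F1, against 9.51, 10.09, 9.38 and 9.32 in CT. Only F1 1 lay within the CT range (difference -0.51 ± 0.24, adjusted p = 0.517), and the difference was -0.675 without F1 1 and -0.34 without CT 2. The groups overlapped for Mrps23 (-0.355 ± 0.22) and Mrps11 (-0.33 ± 0.22), both of the small subunit. They overlapped too for Mrpl15 (-0.26 ± 0.21), Mrpl30 (-0.215 ± 0.22) and Mrps18b (-0.19 ± 0.27), with adjusted p-values from 0.611 to 0.828 over these 5 genes. Mrps18b, Mrps18c and Mrps18a are related proteins. Mrps18a (0.46 ± 0.21, adjusted p = 0.501) was higher in mean in F1, as was Mrps18c. The lower mean of Mrps18b was smaller than its SE, with a 95% interval of -0.81 to 0.42. With F1 1 and CT 4 left out, Mrps9 was at -0.76 and the other 5 genes named as lower in mean between -0.40 and -0.32. Mrps9 then had the smallest p of the list (unadjusted p = 0.0151, adjusted p = 0.566 in limma), just ahead of Mrps35 (unadjusted p = 0.0153). Leaving out 1 library took Mrps18b to between -0.35 (without F1 1) and -0.015 (without F1 3), Mrpl30 to between -0.36 (without F1 1) and -0.10 (without CT 1), and Mrpl15 to -0.09 (without CT 1). Mrps11 was at -0.18 without CT 2 and -0.19 without F1 2, and Mrps23 at -0.23 without F1 3.

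**Figure D2:**
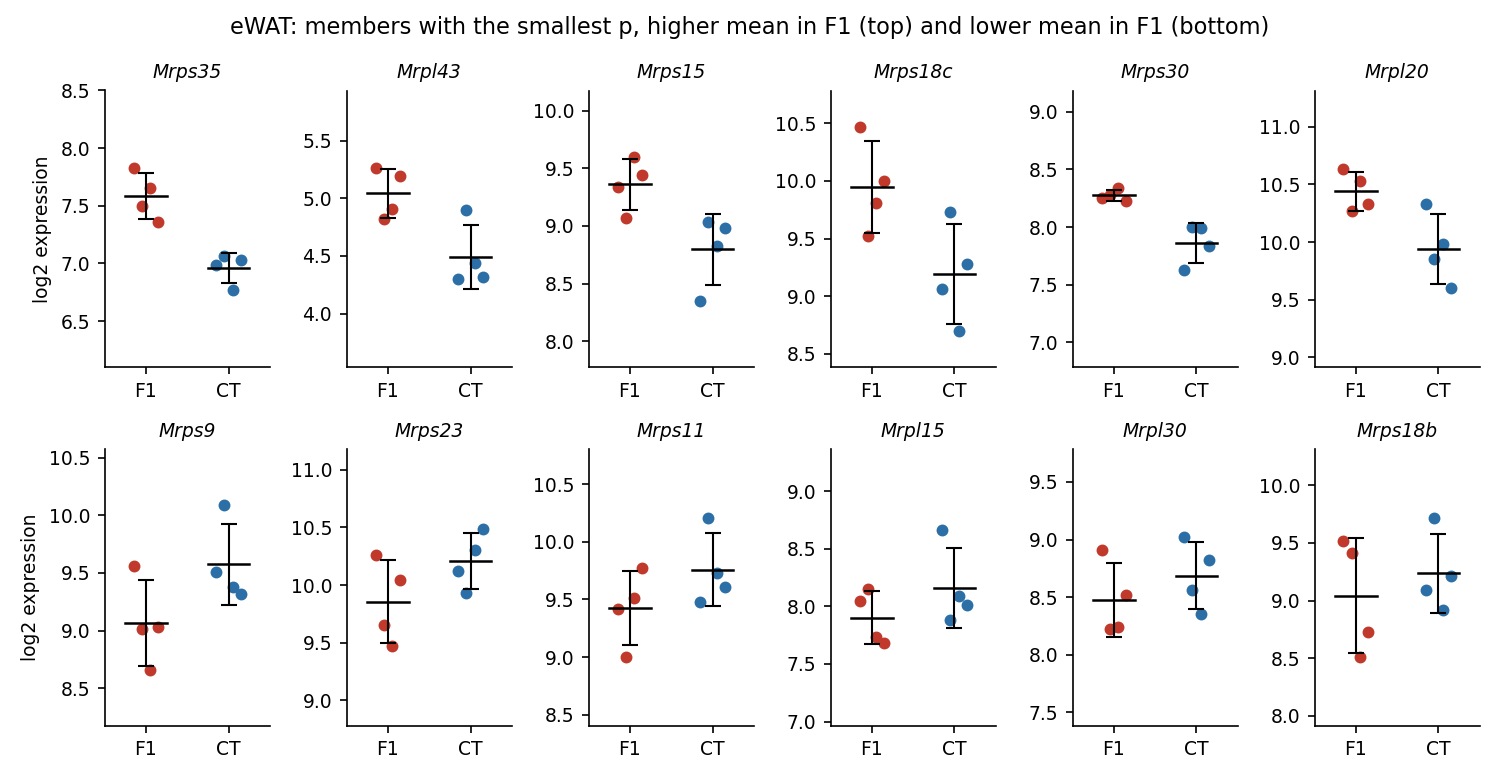
Log2 expression in each eWAT library (points; F1 red, left, and CT blue, right) of the 6 genes with the smallest p among those with a higher mean in F1 (top row) and among those with a lower mean in F1 (bottom row); horizontal lines are means and bars SD, n = 4 each. Mrps35, Mrps15 and Mrps30 have no overlap between the groups, and all the genes of the bottom row overlap.

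By place in the ribosome, genes with a higher mean in F1 eWAT were spread over both subunits. The 50 large-subunit genes had a median difference of 0.19, with 40 higher in mean, and the 25 small-subunit genes 0.25, with 18 higher. Genes with a bacterial counterpart (45) and genes specific to mitochondria (30) had medians of 0.195 and 0.24, with 34 and 24 higher in mean. Around the exit tunnel, where the new protein leaves the ribosome, 8 of 11 genes were higher in mean, with a median of 0.18. In the central protuberance, which bridges the subunits, 5 of 7 were higher, with a median of 0.07, and in the stalk, which recruits translation factors, 2 of 3, with a median of 0.095. The 5 large-subunit genes with an unadjusted p under 0.05 were all among the 29 not assigned to these regions, of which 25 were higher in mean. Place was assigned by hand, and other assignments could move genes such as Mrpl4 (0.36) and Mrpl11 (0.33) out of the 29. With F1 1 and CT 4 left out, the median was 0.07 in the large and 0.14 in the small subunit (33 of 50 and 17 of 25 higher in mean), 0.06 for genes with a bacterial counterpart and 0.155 for genes specific to mitochondria. It was then 0.04 around the exit tunnel, -0.01 in the central protuberance, 0.06 in the stalk and 0.14 in the other large-subunit genes, of which 0 had an unadjusted p under 0.05. Differences between these subgroups were not tested.

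The mitochondrial ribosome helps to build most, but not all, of the OXPHOS complexes. Of 77 OXPHOS subunits, 75 had a higher mean in F1, with a median difference of 0.39. An unadjusted p under 0.05 was reached by 33, all higher, against 4.96% higher of all genes. In 23 of the 77 no CT library reached the F1 range, against 2.93% of all genes. Cox6c, a subunit of cytochrome c oxidase, ranged from 14.20 to 15.08 in F1 and from 13.69 to 14.02 in CT (0.76 ± 0.21, adjusted p = 0.378). Of 61 cytosolic ribosomal proteins, which form the ribosome outside mitochondria, 51 had a higher mean in F1, with a median of 0.165 and 9 past an unadjusted p of 0.05. In 13 of the 61 no CT library reached the F1 range. Library medians of the deviation were 0.05 to 0.10 in F1 and -0.20 to 0.01 in CT for these genes. For the OXPHOS subunits they were 0.08 to 0.39 and -0.29 to -0.004. On both lists the groups did not overlap, unlike those of the mitochondrial ribosomal genes. None of the genes on these lists passed the adjusted threshold.

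**Figure D3:**
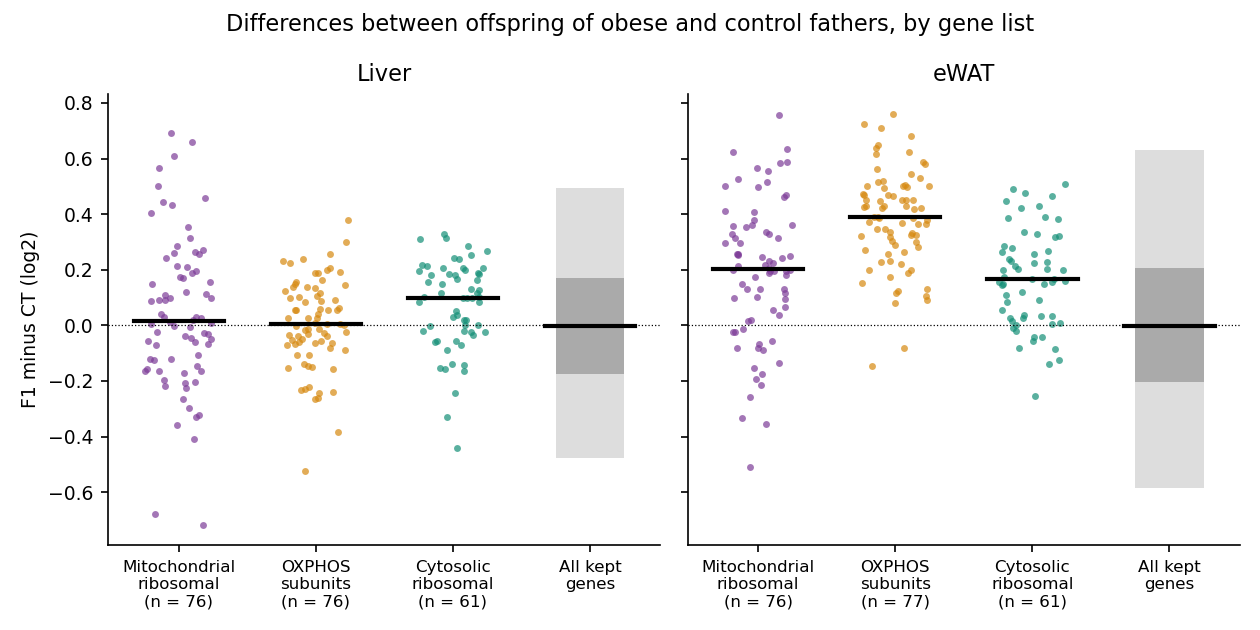
F1 minus CT difference (log2) of each gene on 3 lists in liver and in eWAT; points are genes, black lines medians, and for all genes tested the dark box spans the 25th to 75th and the light box the 5th to 95th percentile. In eWAT the medians were 0.20 for mitochondrial ribosomal, 0.39 for OXPHOS and 0.165 for cytosolic ribosomal genes, and in liver 0.015, 0.005 and 0.10.

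Factors that act with the mitochondrial ribosome were described list by list in eWAT. Of the 4 ribosomal proteins without an Mrp name that were measured, 2 had a higher mean (median 0.005). Chchd1 was 0.17 ± 0.22 and Gadd45gip1 -0.095 ± 0.27. Of 16 mitochondrial aminoacyl-tRNA synthetases, which load tRNAs with amino acids, 8 were higher in mean (median -0.01). Fars2, the phenylalanine enzyme, ranged from 8.76 to 9.17 in F1 and from 9.25 to 9.66 in CT, all F1 libraries being lower (-0.50 ± 0.16, adjusted p = 0.397). Of 14 translation factors, 11 were higher in mean (median 0.12), among them the initiation factor Mtif3 with all F1 libraries above the CT libraries (0.39 ± 0.15, adjusted p = 0.442). Of 28 ribosome assembly factors, 15 were higher in mean (median 0.05), and 0 had an unadjusted p under 0.05.

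Upstream of these, 10 of 16 genes of mitochondrial DNA maintenance and transcription had a higher mean in F1 eWAT (median 0.10). Hsd17b10, a subunit of the enzyme that cuts mitochondrial transcripts, ranged from 12.16 to 12.85 in F1 and from 11.68 to 12.00 in CT (0.56 ± 0.19, adjusted p = 0.408). Tfb2m, a transcription factor of mitochondrial DNA, met the CT range at 10.73 (0.44 ± 0.17, adjusted p = 0.442). Of 14 regulators of mitochondrial biogenesis, 7 were higher in mean (median 0.01). Ppara, the fatty acid receptor, was at 0.97 ± 0.33, and the coactivators Ppargc1a and Ppargc1b at 0.75 ± 0.33 and 0.91 ± 0.46. Their groups overlapped, with adjusted p-values of 0.408, 0.492 and 0.535. With F1 1 and CT 4 left out, the OXPHOS median was 0.28 and the cytosolic ribosomal median 0.16, beside 0.09 for the mitochondrial ribosomal genes. The medians were then -0.16 for the 4 ribosomal proteins without an Mrp name, -0.07 for the synthetases, 0.03 for the translation factors, -0.06 for the assembly factors, and -0.09 for both the mitochondrial DNA genes and the regulators.

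Marker lists of other cell types had unequal means in eWAT, and no marker passed the adjusted threshold there. All 10 hepatocyte markers had a higher mean in F1 (median 1.99), and the log2 of their summed level was 18.49 to 20.19 in F1 and 17.11 to 19.63 in CT. Within the list, Cyp2e1 did not follow Alb. In CT 1 to 4 Cyp2e1 stood at 17.54, 17.04, 17.47 and 17.42, and Alb at 14.16, 12.43, 18.91 and 18.55. Cyp2e1 was higher in all F1 libraries than in CT (17.88 to 18.68 in F1). The summed level is therefore not a measure of Alb-like liver transcripts alone. With the hepatocyte marker level of each library as a covariate, the median of the mitochondrial ribosomal genes was 0.25, with 65 of 76 higher and 17 past an unadjusted p of 0.05, all higher (all genes 5.39% higher and 5.05% lower). Of 13 macrophage markers tested, 12 had a lower mean in F1 (median -0.57), and the summed level was 16.51 to 17.44 in F1 and 17.29 to 18.40 in CT. Of 9 brown and beige adipocyte markers on the array, 7 passed the filter, and 6 of these had a higher mean in F1 (median 0.49). The summed level of the 9 was 8.00 to 10.24 in F1 and 7.71 to 10.15 in CT. Ucp1, left out by the filter, stood at 2.01 to 2.35 in F1 and 2.14 to 2.74 in CT. Of 8 skeletal muscle markers, 7 had a lower mean in F1 (median -0.815), with a summed level of 9.09 to 11.16 in F1 and 9.29 to 10.89 in CT. The 9 adipocyte markers had a median of 0.085. With F1 1 and CT 4 left out, the medians were 3.34 for hepatocyte, -0.33 for macrophage, 0.28 for brown and beige, -0.70 for muscle and 0.06 for adipocyte markers. The part of macrophage, beige and muscle transcripts in the differences above was not tested.

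In liver the same genes showed no common direction. Of the 76, 41 (53.9%) had a higher mean in F1, against 49.9% of all 14683 genes, with a median difference of 0.015. None passed the adjusted threshold in limma, which 0.157% of all genes did. At an unadjusted p under 0.05, 2 of the 76 (2.63%) were higher and 4 (5.26%) lower in F1, against 4.48% and 4.67% of all genes. The F1 libraries were all higher than the CT libraries in 1 gene and all lower in 2, against 2.68% and 2.7% of all genes. Library medians of the deviation were 0.08, -0.06, -0.07 and 0.07 in F1, and 0.01, -0.05, 0.07 and -0.02 in CT. The large subunit had a median of 0.035 (29 of 50 higher in mean) and the small subunit -0.025 (12 of 25).

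Mrps10, the counterpart of a bacterial small-subunit protein, had the smallest p of the list in any F1 against CT comparison. Its liver level was 9.79, 9.63, 9.70 and 9.60 in F1, and 10.44, 10.14, 10.37 and 10.64 in CT. The F1 libraries were all lower than the CT libraries, and the difference was -0.72 ± 0.15 (a 0.61-fold ratio, adjusted p = 0.147 in limma). Mrpl19, of the large subunit, differed the other way, at 8.02, 8.11, 7.58 and 7.39 in F1 and 7.38, 6.79, 7.06 and 7.10 in CT. Its F1 libraries were all higher, F1 4 only just so against CT 1 (0.69 ± 0.21, adjusted p = 0.326). Mrps5, of the small subunit's entry side, stood at 10.81, 10.81, 10.75 and 10.87 in F1, and at 11.09, 11.05, 11.06 and 11.33 in CT. Its F1 libraries were all lower, and CT 4 stood above the other CT libraries (-0.32 ± 0.14, adjusted p = 0.513).

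The other liver genes with the smallest p overlapped between the groups. Mrpl16, which lies near the peptidyl transferase centre in bacteria, stood at 8.12, 7.06, 7.28 and 8.05 in F1, and at 8.57, 8.36, 8.24 and 8.06 in CT. Its F1 libraries formed a high and a low pair (-0.68 ± 0.26, adjusted p = 0.481). Mrpl14, of the subunit interface, stood at 7.23, 7.61, 7.04 and 7.78 in F1, and at 7.01, 6.93, 7.09 and 6.19 in CT. The low library CT 4 bore on the difference of 0.61 ± 0.24 (adjusted p = 0.496), which was 0.405 without it. Mrps15, at 7.47, 7.89, 6.27 and 7.19 in F1 and 6.81, 6.49, 6.69 and 6.19 in CT, had the widest spread of the list in liver F1 (SD 0.69) and a difference of 0.66 ± 0.31. Mrps27 (0.565 ± 0.27), Mrps21 (0.50 ± 0.24) and Mrpl45 (0.355 ± 0.18), the last a membrane-facing exit-tunnel protein, were higher in mean in F1. Mrpl48 (-0.41 ± 0.16), Mrps23 (-0.33 ± 0.21) and Mrpl37 (-0.36 ± 0.23) were lower in mean. Adjusted p-values of these 6 genes and of Mrps15 lay between 0.499 and 0.702. Without liver F1 4, the library with pancreas transcripts, the Mrpl37 difference was -0.13 and that of Mrpl45 0.22, and Mrps10 was at -0.69. Mrps23 was at -0.145 and Mrps15 at 0.43 without F1 2, and Mrps21 was at 0.30 without CT 2.

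**Figure D4:**
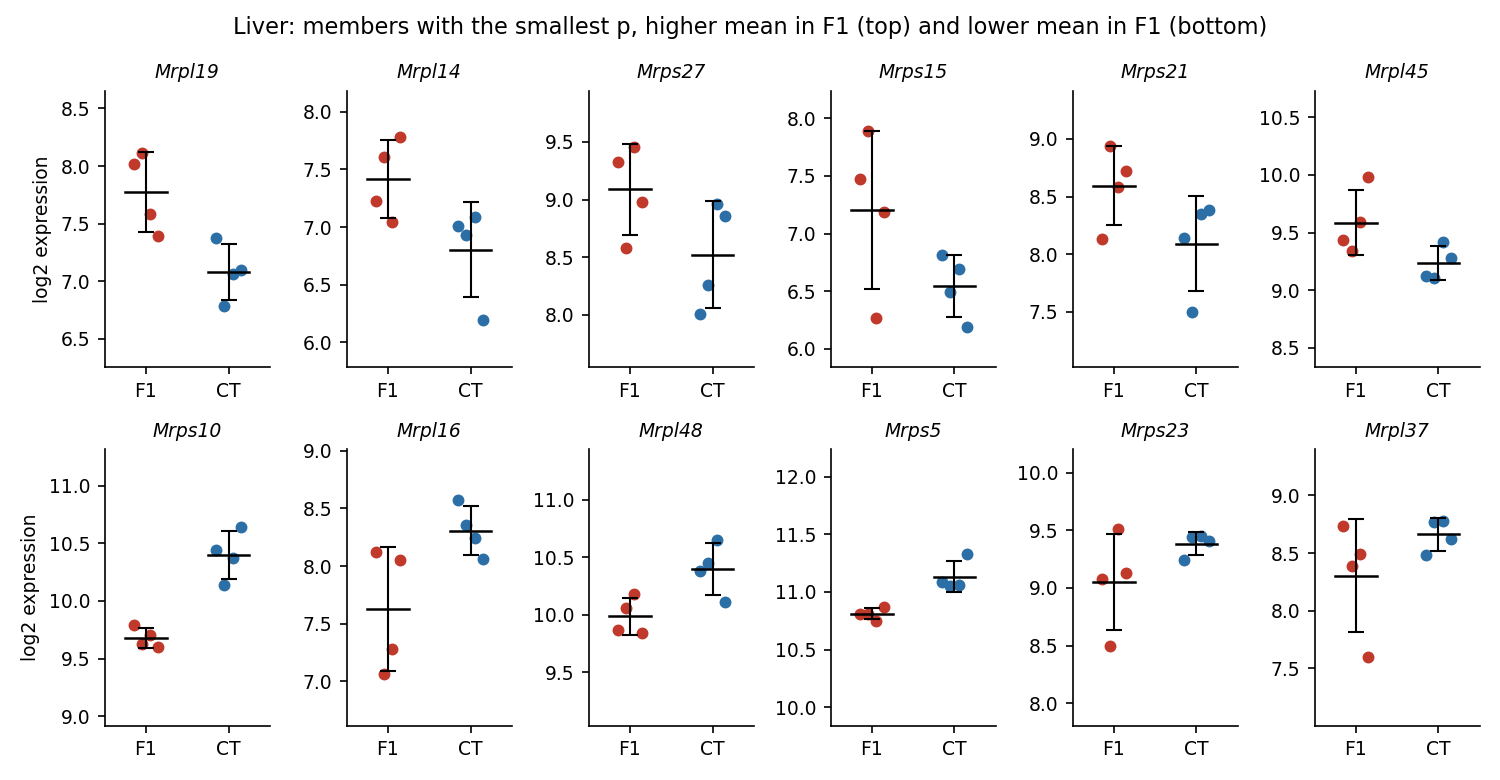
Log2 expression in each liver library (points; F1 red, left, and CT blue, right) of the 6 genes with the smallest p among those with a higher mean in F1 (top row) and among those with a lower mean in F1 (bottom row); horizontal lines are means and bars SD, n = 4 each. Mrpl19, Mrps10 and Mrps5 have no overlap between the groups, and Mrps10 averaged 9.68 in F1 and 10.40 in CT.

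Related genes in liver differed in both directions. Of the ribosomal proteins without an Mrp name, Gadd45gip1 was lower in all F1 libraries (6.36 to 6.74 in F1, 6.96 to 7.22 in CT, -0.525 ± 0.15, adjusted p = 0.321). Chchd1 was higher in all F1 libraries (6.43 to 7.07 in F1, 6.03 to 6.31 in CT, 0.49 ± 0.17, adjusted p = 0.442). Of the 16 aminoacyl-tRNA synthetases, 11 had a lower mean in F1 (median -0.10), with the isoleucine enzyme Iars2 lower in all F1 libraries (-0.48 ± 0.15, adjusted p = 0.351). Of the 28 assembly factors, 19 had a lower mean (median -0.07), and Mettl17, a methyltransferase-like factor of the small subunit, was at 0.655 ± 0.24 (adjusted p = 0.464). The OXPHOS subunits had a median of 0.005 and the cytosolic ribosomal proteins 0.10. Ppargc1b, a coactivator of mitochondrial and lipogenic genes, ranged from 10.03 to 11.30 in F1 and from 7.90 to 9.27 in CT. This was 1.915 ± 0.34 higher in F1 and not past the threshold (adjusted p = 0.0748). All 12 acute phase genes had a higher mean in F1 liver (median 2.12), 11 of them at an unadjusted p under 0.05, and their part in these results was not tested.

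Whether the difference between F1 and CT depended on the tissue was tested as an interaction, the liver difference minus the eWAT difference, over all 16 libraries. None of the 76 passed the adjusted threshold, which 0.0823% of 14578 genes did. At an unadjusted p under 0.05, 5 of the 76 (6.58%) had a lower difference in liver than in eWAT and 0 a higher one, against 4.98% and 4.92% of all genes. Mrps10 was at -0.72 in liver and 0.30 in eWAT, an interaction of -1.015 ± 0.35 (adjusted p = 0.355). Mrps35 was at -0.05 in liver and 0.62 in eWAT, an interaction of -0.67 ± 0.25 (adjusted p = 0.394). Mrpl16 was at -0.68 and 0.19 (interaction -0.87 ± 0.35), Mrpl43 at -0.03 and 0.555 (-0.59 ± 0.25), and, named after its values were seen, Mrpl37 at -0.36 and 0.515 (-0.875 ± 0.40), in liver and in eWAT. The adjusted p-values of these 3 ran from 0.435 to 0.481. In the opposite direction Mrpl19 (0.485 ± 0.29), Mrps9 (0.52 ± 0.35), Mrpl15 (0.54 ± 0.38) and Mrpl14 (0.46 ± 0.34) had the smallest p, with adjusted p-values from 0.618 to 0.685. With eWAT F1 1 and CT 4 left out, 4 of the 76 had a lower and 1 a higher difference in liver at an unadjusted p under 0.05 (4.69% and 4.59% of all genes), and 0 passed the adjusted threshold. The interaction was then -0.68 for Mrps10, -0.61 for Mrps35, -0.88 for Mrpl16 and -0.96 for Mrpl37. For Mrpl43 it was -0.46, no longer under an unadjusted p of 0.05. The 1 gene with a higher difference in liver was Mrps9, at 0.77. Mrps15 was at 0.66 in liver and 0.565 in eWAT, and Mrps23 at -0.33 in liver and -0.355 in eWAT.

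In control offspring, most mitochondrial ribosomal genes were higher in liver than in eWAT, relative to the middle of each library. The deposited values of the tissues differ in scale, with library medians of 5.21 to 5.24 in liver and 6.34 to 6.56 in eWAT, so each library was centred on its median before this comparison. On that scale 48 of the 76 (63.2%) were higher and 2 (2.63%) lower in liver at an adjusted p under 0.05, against 43.2% and 28.4% of 13180 genes. The median difference was 0.79 for the 76 and 0.32 for all genes, and 54 of the 76 lay above the median of all genes. The eWAT CT libraries also held liver transcripts, and without the library with germ cell transcripts, eWAT CT 4, 41 were higher and 2 lower in liver. The split depends on the scale. On the deposited values with no centring, 11 were higher and 36 lower in liver (all genes 17.7% and 57.8%), with medians of -0.55 for the 76 and -0.85 for all genes. After quantile normalization, 40 were higher and 2 lower (all genes 32.9% and 33.7%), with medians of 0.73 and 0.02. Under each scaling the median of the 76 lay above that of all genes.

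**Figure D5:**
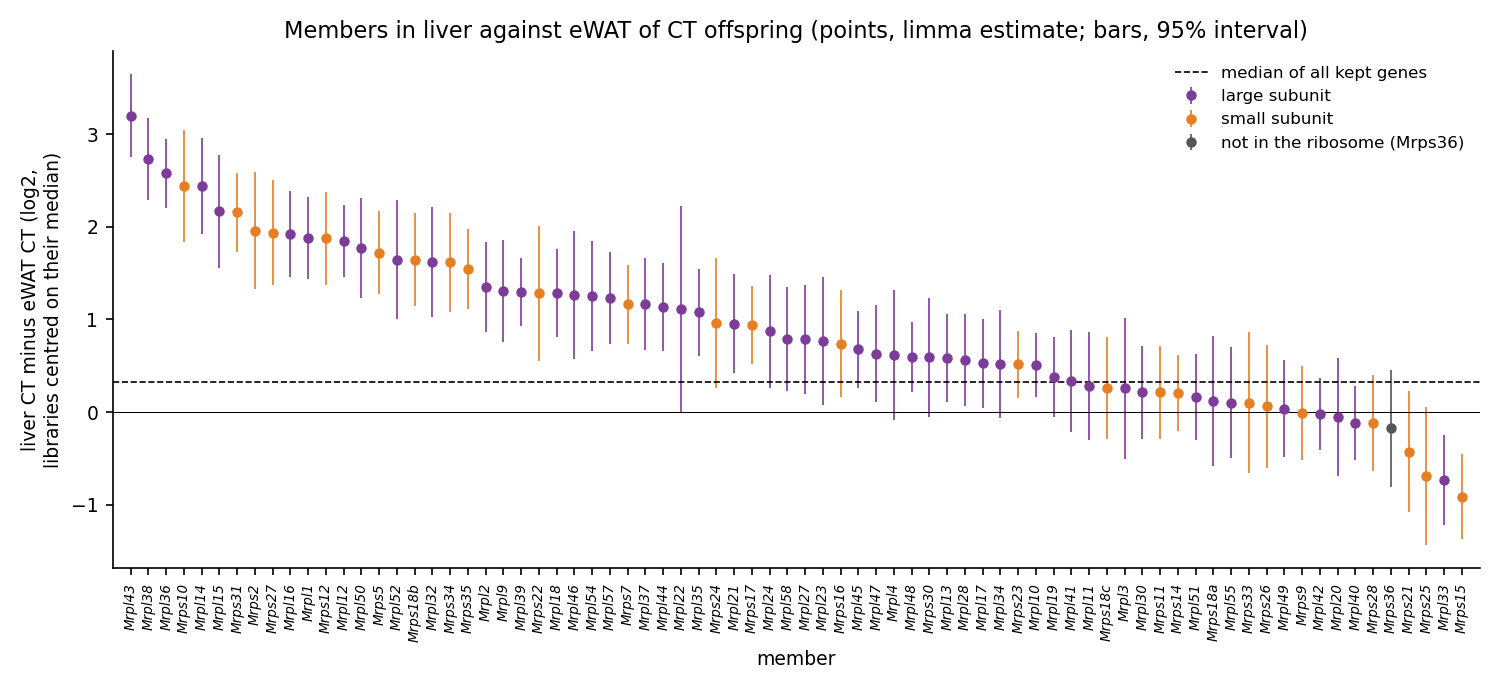
Liver CT minus eWAT CT difference (log2, each library centred on its median) of the 76 genes in falling order, with 95% intervals, by subunit; the dashed line is the median of all genes tested, 0.32. Mrpl43 is highest at 3.20 and Mrps15 lowest at -0.91; without centring each value is lower, and 36 of the called genes are lower in liver.

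Mrpl43 had the largest tissue difference. Its deposited level was 6.12, 6.41, 6.56 and 6.31 in liver CT, against 4.30, 4.90, 4.44 and 4.32 in eWAT CT, higher in liver even before centring, and the centred difference was 3.20 ± 0.20 (adjusted p = 8.75e-08). Mrpl38, of the central protuberance, stood at 10.56, 10.43, 10.86 and 10.57 in liver CT and at 9.43, 9.35, 9.21 and 8.86 in eWAT CT (2.73 ± 0.20, adjusted p = 3.16e-07). Mrpl36, of the large subunit, stood at 5.73, 5.97, 5.52 and 5.82 in liver CT and at 4.49, 4.62, 4.38 and 4.6 in eWAT CT (2.58 ± 0.17, adjusted p = 1.24e-07). Mrps10 followed at 2.44 ± 0.28 (adjusted p = 1.17e-05), and with it Mrpl14 at 2.44 ± 0.24. These 5 were also higher in liver without centring, by 1.10 to 1.86, and after quantile normalization, by 2.05 to 2.66. Dim genes stood higher in liver too. Before centring, library medians of 18 epididymis markers were 3.82 to 3.86 in liver CT and 3.035 to 3.27 in eWAT CT. Centring widens such a gap. Mrpl43, Mrpl36 and Mrpl14 were themselves dim in eWAT CT (4.30 to 5.89). How much this offset adds to their differences was not tested. The 2 genes called lower in liver were Mrps15, at 6.81, 6.49, 6.69 and 6.19 in liver CT and 8.35, 9.03, 8.83 and 8.98 in eWAT CT (-0.91 ± 0.21, adjusted p = 0.00231), and Mrpl33, at 8.71, 8.38, 9.23 and 9.09 in liver CT and 10.88, 11.10, 10.77 and 10.95 in eWAT CT (-0.73 ± 0.22, adjusted p = 0.0110). Both were lower in liver under all 3 scalings.

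By group, the small subunit had a median tissue difference of 0.935 (15 of 25 higher and 1 lower in liver) and the large subunit 0.79 (33 of 50 higher and 1 lower). Mitochondria-specific genes had a median of 1.15 (20 of 30 higher, 0 lower), and genes with a bacterial counterpart 0.765 (28 of 45 higher, 2 lower). On the same centred scale the OXPHOS subunits had a median of 1.36, with 68 of 77 higher in liver, and the cytosolic ribosomal proteins 0.24, with 19 of 60 higher. Aminoacyl-tRNA synthetases (median 1.19, 12 of 16 higher) and assembly factors (median 0.85, 17 of 28 higher) lay between them. The differences between these lists were not tested. Within a group, libraries varied by a median SD of 0.33 over the 76 genes in liver F1, 0.31 in liver CT, 0.30 in eWAT F1 and 0.31 in eWAT CT, against 0.29, 0.27, 0.29 and 0.30 over all genes.

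Promoters were compared because the nuclear genes of this machinery are known targets of NRF1 and of the ETS-family factor GABP, which bind short GC-rich sites close to the transcription start. RefSeq windows of 300 bases (250 before and 50 after the gene start, build GRCm38.p6) were found for 67 of the 76 genes, in 73 windows. The genes without a window are Mrpl13, Mrpl15, Mrpl19, Mrpl38, Mrpl4, Mrpl54, Mrps28, Mrps34 and Mrps35. The ETS-family motif CCGGAAG, searched on both strands, was in 34.2% of the 73 windows and in 8.86% of all 32851 promoters (11.6% of those of protein-coding genes). The NRF1 motif, GCGCA and GCGC with any base between them, was in 17.8% and in 4.6% (6.38%). The YY1 motif AAGATGG was in 17.8% and in 6.34% (6.24%). Compared promoters were not matched to the 73 windows in G and C or in CpG dinucleotides. No matches of different motifs overlapped in the 73 windows, although CCGGAAG and AAGATGG can share letters.

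In eWAT the 25 genes with an ETS-family match had a median F1 minus CT difference of 0.34, with 19 higher in mean, and the 42 genes with a window and no match 0.195, with 33 higher. For the NRF1 motif these medians were 0.195 with a match and 0.22 without, and for the YY1 motif 0.175 and 0.215. With F1 1 and CT 4 left out the ETS-family medians were 0.19 with a match and 0.085 without. The NRF1 medians were then 0.087 and 0.088, and the YY1 medians 0.083 and 0.088. In liver the ETS-family medians were -0.025 with a match and 0.03 without, those for NRF1 0.0125 and 0.0175, and those for YY1 0.03 and 0.01. The differences between genes with and without a match were not tested. The 4 windows shown are those of the genes with the smallest p in F1 against CT among those named that had 1 window: Mrps10, lower in mean in F1 liver, and Mrpl43, Mrps15 and Mrps18c, higher in mean in F1 eWAT. They are written 5′ to 3′ on the gene's strand, with matches to the searched motifs in capitals.
Mrps10: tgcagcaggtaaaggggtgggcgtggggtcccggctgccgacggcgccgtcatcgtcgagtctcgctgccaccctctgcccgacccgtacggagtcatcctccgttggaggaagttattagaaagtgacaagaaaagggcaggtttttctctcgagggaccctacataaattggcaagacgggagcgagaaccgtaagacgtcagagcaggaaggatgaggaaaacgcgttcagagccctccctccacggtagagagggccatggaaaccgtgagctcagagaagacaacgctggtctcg
Mrpl43: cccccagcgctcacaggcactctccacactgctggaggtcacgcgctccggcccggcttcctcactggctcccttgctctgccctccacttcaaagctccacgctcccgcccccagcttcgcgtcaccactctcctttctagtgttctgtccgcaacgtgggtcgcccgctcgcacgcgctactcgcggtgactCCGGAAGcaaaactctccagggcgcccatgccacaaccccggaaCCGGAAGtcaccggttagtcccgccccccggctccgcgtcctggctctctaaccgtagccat
Mrps15: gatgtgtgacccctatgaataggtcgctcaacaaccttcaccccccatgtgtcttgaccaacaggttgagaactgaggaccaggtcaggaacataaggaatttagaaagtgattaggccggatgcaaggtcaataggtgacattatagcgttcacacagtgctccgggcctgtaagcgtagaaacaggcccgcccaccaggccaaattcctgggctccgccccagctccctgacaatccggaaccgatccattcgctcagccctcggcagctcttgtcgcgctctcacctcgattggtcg
Mrps18c: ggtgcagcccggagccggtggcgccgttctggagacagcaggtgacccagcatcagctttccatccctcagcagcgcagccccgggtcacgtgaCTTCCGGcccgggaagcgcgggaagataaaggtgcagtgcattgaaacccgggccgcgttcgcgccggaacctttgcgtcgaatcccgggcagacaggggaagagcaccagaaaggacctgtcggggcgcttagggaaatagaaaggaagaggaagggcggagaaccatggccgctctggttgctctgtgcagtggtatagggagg
The Mrps10 window is chr17:47368947-47369246 (+ strand) and holds 24 CpG dinucleotides and no match. The Mrpl43 window, chr19:45006393-45006692 (- strand, 28 CpG dinucleotides), holds 2 ETS-family matches, which begin 56 and 12 bases before the gene start. The Mrps15 window, chr4:126046678-126046977 (+ strand, 15 CpG dinucleotides), has no match and is the poorest of the 4 in G and C, at 55%. The Mrps18c window, chr5:100798509-100798808 (+ strand, 24 CpG dinucleotides), holds 1 ETS-family match, read on the opposite strand, that begins 156 bases before the gene start. A match is a description of these letters, and binding was not measured.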

How the data were processed

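Affymetrix arrays were run on RNA of 16 tissue samples, 150 ng each. Per the submitters' processing notes, the authors used RMA and Transcriptome Analysis Console 4.0, and the deposited values are log2 expression per probe set. The genome build of the probe sets is not given in the sources used here. Of 22206 probe sets, 19572 had 1 gene symbol in the platform annotation, 0 several and 2634 none. Where a symbol had several probe sets (55 symbols), the brightest was used, and 0 value columns were left unused.

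From these values, genes with a mean below the 25th percentile of a fit's libraries were left out, and differences were fitted with limma 3.58.1 in R 4.3.3 (lmFit, eBayes, Benjamini-Hochberg over all genes kept, threshold 0.05), with 8 libraries per tissue and all 16 for the interaction. The code was tested on simulated data. Sorted values differed by at most 0.53 between libraries of a tissue and by 1.39 to 1.71 between tissues, as after separate normalization. Libraries correlated at 0.976 to 0.991 within a tissue, and none was a copy of another. Arrays have no read depth, so their number limits the precision. Same-numbered F1 and CT samples of a tissue were not treated as pairs (correlations of deviations from -0.26 to 0.18, not all over 0.1), nor were same-numbered liver and eWAT samples (0.0097 to 0.045).

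Genes were named by rule: per tissue the 6 smallest p in each direction, for the interaction 4, for the tissues the 4 largest called differences in each direction, and up to 3 genes of each other list. Members and lists were chosen with earlier results of these data known, and the seminal vesicle list and 2 eWAT alternatives (1 also used for the interaction) after seeing the values. Place and origin in the ribosome were assigned by hand from textbook knowledge. Alternatives were the filter, variance model, array weights, normalization, libraries in the fit, the replicate block and left-out libraries. Promoters came from RefSeq.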

Additional observations from a re-analysis of the deposited data

Results flagged for a closer look

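Of 68 groups of 4 libraries examined, 3 held a library far from the others: its gap to the nearest library, divided by the group's range, exceeded Dixon's 95% critical value, a level that by definition marks about 1 in 20 groups by chance. Mrps5 stood at 11.33 in liver CT 4, against 11.05 to 11.09 in the other liver CT libraries. Without liver CT 4 its F1 minus CT difference was -0.26 in place of -0.32. The median level of the seminal vesicle transcripts was 14.01 in eWAT F1 1, against 2.73 to 3.20 in the other eWAT F1 libraries. That list was drawn up after seeing the values, so the rate of about 1 in 20 does not apply to its flag. The median level of the male germ cell markers was 9.245 in eWAT CT 4, against 2.64 to 2.975 in the other eWAT CT libraries. Not every unusual library is among the 3. In liver F1 4 the pancreas transcript Amy2a5 was at 17.69, against 6.05 to 6.79 in the other liver F1 libraries. The mitochondrial ribosomal genes were highest in eWAT F1 1 and lowest in eWAT CT 4, and the cause was not tested.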

How the results depend on the processing

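No mitochondrial ribosomal gene passed the threshold between F1 and CT, or in the interaction, under any alternative run for it, and the 192 eWAT and 168 liver alternative values of the named genes kept their direction. The median difference ran from 0.14 to 0.25 in eWAT and from 0.0025 to 0.06 in liver when each library was left out in turn, and it was 0.09 in eWAT without F1 1 and CT 4 and 0.25 with the hepatocyte marker level as a covariate, both chosen after seeing the data. With the replicate number as a block, the medians stayed at 0.20 in eWAT and 0.015 in liver, with 0 genes called in each, and 49 genes were called between the tissues. Over all genes, the block gave 6 calls in place of 23 in liver and 1 in place of 12 in the interaction. In the F1 against CT fits and the interaction, the block joined same-numbered F1 and CT libraries of a tissue. Only between the tissues did it join same-numbered liver and eWAT libraries, those of CT. Same-numbered liver and eWAT libraries of F1 correlated best with each other in 4 of 4 cases, at 0.029 to 0.045, and those of CT in 3 of 4, at 0.017 to 0.041 (replicate 3 at 0.0097), which is a hint from the data and not the design. With trend and robust settings 75 genes in liver and 38 in the interaction were called over all genes, and with all 16 libraries in 1 fit 51 in liver and 28 in eWAT. In eWAT the count over all genes was otherwise 0 or 1. Leaving out each library gave 7 to 24 calls over all genes in liver (7 without CT 2), 7 to 26 in the interaction (7 without eWAT CT 3, 26 without eWAT F1 3), and 43 to 49 mitochondrial ribosomal genes called between the tissues in place of 50. Between tissues, 15673 genes were called with no filter on dim probe sets in place of 9445. The split of those calls for the 76 genes was 96% higher in liver when centred, 23.4% with no centring and 95.2% after quantile normalization.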
